A study of Homo sapiens with 16 samples.

Results

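The net change over the whole BJ fibroblast model at low oxygen was measured by comparing its last stage with its first stage, both grown at 3% oxygen. The comparison rests on 4 of the 16 RNA-seq libraries of the study: replicates a and b of primary BJ cells and replicates a and b of metastasizing cells. The members were taken by their labels (stage and oxygen level), transcript values were summed by protein-coding gene, and genes whose mean reached 1 TPM in either group were kept, where TPM is transcript abundance scaled to the same total in every library. Primary BJ cells are unmodified human fibroblasts. Metastasizing cells are the line labelled BJ hTERT+ SV40+ Ras-G12V, which carries the telomerase subunit hTERT, the SV40 early region with Large-T, and mutated H-Ras. The stages between them are immortalized cells (hTERT alone) and transformed cells (hTERT and SV40). Every stage was kept for 6 passages at 3% oxygen and, in parallel, at atmospheric oxygen, in the same medium with serum, and each replicate is 1 of 2 plates grown side by side. Each stage is 1 line, all lines are of fibroblast origin, and the 3 changes were added one after another, so that the end-to-end comparison holds all of them at once. Since nothing beyond the plates separates the replicates, p-values measure the spread between plates only.

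The 3 introduced factors act on well-known brakes of growth. Telomerase rebuilds chromosome ends and lifts the limit on the number of divisions. SV40 Large-T binds the retinoblastoma proteins and p53, which frees E2F factors from repression and disables the p53 response to damage. H-Ras with a glycine to valine change stays bound to GTP and drives the MAPK cascade, which feeds AP-1 and ETS factors. Fibroblasts themselves are known for making collagen, elastin and the other proteins of the extracellular matrix, and low oxygen is sensed through hydroxylases that keep the HIF factors unstable when oxygen is plentiful.

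The 4 libraries were comparable in the breadth of what they held, with 11661 to 11852 protein-coding genes above 1 TPM. Mitochondrially encoded genes held 2.59% and 4.33% of the TPM in the primary and 1.16% and 1.47% in the metastasizing libraries, and the part of this in the results was not tested. The replicates were not equally tight. Among genes of at least 1 TPM, 3.26% differed more than 2-fold between the primary replicates and 10.99% (1301 of 11843) between the metastasizing replicates, the widest pair in the study, where the other groups lay between 1.83% and 4.08%. The difference within the metastasizing pair also showed in medians of gene lists used below (b minus a, log2 scale). These were 0.69 for chemokines and cytokines, 0.68 for cholesterol and 0.65 for mitosis genes. They were -0.69 for contractile and -0.90 for ID and BMP feedback genes, and 0.04 for replication genes. The fit over all 16 libraries shares 1 estimate of the spread over the groups, so counts at 3% oxygen are also given with library weights. These gave both libraries of that pair a weight of 0.24. Libraries of a group share 1 weight, so the fold changes stay the same and only their precision changes. The file holds TPM and no read counts, so sequencing depth and the precision it gives are unknown.

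The labels were checked on the introduced genes first. TERT, the catalytic subunit of telomerase (ENSG00000164362, GRCh37 chromosome 5 from 1253262 to 1295183), stood at 0.0370 and 0.543 TPM in primary and 31.7 and 68.1 TPM in metastasizing cells. The groups were far apart (log2 fold change 5.97 ± 0.36, adjusted p = 4.74e-07). HRAS (ENSG00000174775, GRCh37 chromosome 11 from 532242 to 537321) stood at 97.6 and 63.0 TPM in primary and at 143 and 772 TPM in metastasizing cells. Both metastasizing libraries were above both primary ones, but replicate b held most of the signal and the gene missed the threshold (log2 fold change 2.08 ± 0.55, adjusted p = 0.0105), which it passed with replicate a left out, with a log2 fold change of 3.29. At atmospheric oxygen the libraries labelled Ras-G12V gave 94.6 and 78.1 TPM against 74.2 and 82.6 TPM in primary cells, so the groups overlapped there. TPM of a gene do not tell the mutated from the normal copy, and whether transcripts of the introduced copy were counted under the annotated gene was not tested.

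The fibroblast origin of the lines was set against markers. All 14 fibroblast markers were measured above 1 TPM in at least 1 of the 4 libraries, and vimentin (VIM), the intermediate filament of mesenchymal cells, reached 5771 and 6127 TPM in primary and 3628 and 4308 TPM in metastasizing cells. The summed level of the 14 markers was 22584 to 22747 TPM in primary and 6298 to 7455 TPM in metastasizing cells. Of the 14, 10 fell, where 9.08% of all tested genes were called lower. Some of them, such as COL1A2, LUM and DCN, are counted again in the collagen and matrix lists below. Of markers of other cell types, 6 of 12 epithelial, 5 of 7 endothelial, 8 of 10 immune and 4 of 8 neural genes stayed under 1 TPM in all 4 libraries, and among them KRT5, CD3E, MS4A1, AIF1 and SOX2 were listed at 0 throughout. The summed epithelial markers ranged from 538 to 624 TPM in primary and from 346 to 364 TPM in metastasizing cells, and most of this was the simple keratins KRT18 and KRT19. KRT19 was at 191.5 and 143 TPM in primary and 1.5 and 5.08 TPM in metastasizing cells (log2 fold change -5.63 ± 0.52, adjusted p = 1.02e-05), and KRT8, which did not pass, at 15.6 and 13.4 TPM and at 34.3 and 18.8 TPM. The endothelial sums were 10.6 to 11.3 and 5.86 to 20.6 TPM, the immune sums 65.8 to 65.9 and 46.9 to 85.6 TPM (nearly all CD68), and the neural sums 229.8 to 283 and 76.0 to 99.6 TPM. Among these, TEK, an angiopoietin receptor, fell by 4.18 on the log2 scale, TIE1, a related receptor, rose by 3.25, and NES, a filament protein of precursor cells, fell by 4.18. Whether these genes moved with other cells in the plates was not tested. A lower level of a marker in bulk RNA does not separate fewer cells of a type from less RNA per cell.

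From primary to metastasizing cells at 3% oxygen, 1951 of 12397 genes changed, which is 15.7% of the genes tested. Calls required an adjusted p (limma, Benjamini-Hochberg) under 0.01 and a change of more than 2-fold on the log2(TPM + 0.5) scale, on which the change of low genes is understated. Higher in metastasizing cells were 825 genes (6.65%) and lower were 1126 (9.08%), around a median of -0.03 on the log2 scale over every gene tested. With library weights 1277 genes were called (10.3%), 519 higher and 758 lower, and all 1277 were among the 1951. When the spread was estimated from the 4 libraries alone, with 2 residual degrees of freedom, 220 genes were called (1.77%), and these too were all among the 1951. In all 1951 called genes the libraries of the groups did not overlap, against 65.6% of all tested genes, and in 1318 the nearest libraries were at least 2-fold apart. The tails were long on the lower side: 157 called genes were down and 82 were up by more than 3 on the log2 scale.

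The largest rises came from secreted inflammatory proteins and from genes with few transcripts in primary cells. G0S2, a protein that blocks the lipase of lipid droplets, was at 0.392 and 0 TPM in primary and 69.6 and 276 TPM in metastasizing cells. IL1B, the interleukin that starts fever and local inflammation (GRCh37 chromosome 2 from 113587328 to 113594393), was at 2.19 and 1.22 TPM and at 186 and 677 TPM (log2 fold change 7.37 ± 0.74, adjusted p = 1.87e-05). In both genes the metastasizing libraries lay far above the primary ones, and replicate b was the higher of the pair. CSF3, the growth factor of neutrophils, was at 0.650 and 0.157 TPM in primary cells against 26.5 and 458 TPM (log2 fold change 6.998 ± 1.25, adjusted p = 0.00102), and its call was lost without primary replicate b (log2 fold change 6.59). CXCL8, a chemokine that draws neutrophils, was at 11.9 and 4.97 TPM against 292 and 699.6 TPM (log2 fold change 5.78 ± 0.75, adjusted p = 0.000113). CSF2, the growth factor of granulocytes and macrophages, was at 0.302 and 0 TPM against 18.3 and 25.3 TPM, and C3, the central complement component, at 0.896 and 1.28 TPM against 48.6 and 54.5 TPM (log2 fold change 5.04 ± 0.51, adjusted p = 1.91e-05). These 6 genes were chosen with at least 2-fold between the nearest libraries of the groups, so the groups could not overlap. The distance between the metastasizing replicates was widest in CSF3.

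Other genes among the largest rises had varied roles. BEX1, an adaptor protein best known from neurons, rose from 1.44 and 2.40 TPM to 462 and 309.8 TPM (log2 fold change 7.32 ± 0.22, adjusted p = 4.13e-09), and its neighbour in the family BEX2 stood at 0.496 and 0 TPM in primary and 82.0 and 10.5 TPM in metastasizing cells. CLDN11, a tight junction claudin, rose from 0.706 and 0.865 TPM to 103 and 244 TPM (log2 fold change 6.96 ± 0.29, adjusted p = 4.13e-08). DNER, a transmembrane ligand of Notch, rose from 0.667 and 0.785 TPM to 28.0 and 70.3 TPM (log2 fold change 5.197 ± 0.37, adjusted p = 1.56e-06). CDKN2A, which encodes the cell cycle inhibitors p16 and p14ARF (GRCh37 chromosome 9 from 21967751 to 21995300), rose from 0.461 and 2.05 TPM to 74.9 and 99.2 TPM (log2 fold change 5.79 ± 0.37, adjusted p = 6.85e-07). In each of these genes both primary libraries were under 3 TPM and both metastasizing libraries above 10 TPM, with BEX2 nearest to that level in replicate b.

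Secreted matrix and growth factor binding proteins were among the largest falls. ELN, elastin (ENSG00000049540, GRCh37 chromosome 7 from 73442119 to 73484237), went from 350.4 and 278 TPM in primary to 0.303 and 0.199 TPM in metastasizing cells (log2 fold change -8.70 ± 0.23, adjusted p = 2.88e-09). IGFBP5, a binding protein of insulin-like growth factors, went from 2488 and 2226 TPM to 9.07 and 3.56 TPM (log2 fold change -8.56 ± 0.27, adjusted p = 6.62e-09). Both were abundant in primary cells and under 10 TPM in metastasizing cells, where the replicates of IGFBP5 lay more than 2-fold apart. LUM, lumican, a small proteoglycan that spaces collagen fibrils, went from 1692 and 1589 TPM to 4.00 and 17.1 TPM (log2 fold change -7.53 ± 0.44, adjusted p = 3.59e-07), and DCN, decorin, of the same family, from 408 and 375 TPM to 2.23 and 7.11 TPM (log2 fold change -6.43 ± 0.34, adjusted p = 1.65e-07). IGFBP3 went from 2486 and 2970.4 TPM to 31.1 and 11.2 TPM and IGFBP2 from 135 and 80.9 TPM to 0.490 and 0.431 TPM. LUM, DCN, IGFBP3 and IGFBP5 stayed above 1 TPM in both metastasizing libraries, whereas IGFBP2 was under 1 TPM. IGFBP3 lost more TPM than any other binding protein of the list.

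SULF1, which trims sulphate from heparan sulphate chains, fell from 362 and 324 TPM to 1.30 and 2.08 TPM (log2 fold change -7.31 ± 0.22, adjusted p = 4.99e-09). TNFRSF11B, osteoprotegerin, the decoy receptor of RANKL, fell from 915 and 858 TPM to 6.35 and 13.2 TPM, and PODN, podocan, a leucine-rich matrix protein, from 89.5 and 75.1 TPM to 0.282 and 0.177 TPM. STMN2, a microtubule regulator, was at 115 and 105 TPM in primary cells and was listed at 0 in both metastasizing libraries, so no fold is given. The list of falls also held ALDH1A1, an enzyme that makes retinoic acid (50.8 and 57.8 TPM against 0.0243 and 0.395 TPM), and SLC38A11, an amino acid transporter of the SLC38 family (55.5 and 52.9 TPM against 0.0517 and 0.216 TPM). Of the 12 largest falls all were also called from the 4 libraries alone, and of the 12 largest rises 9 were, BEX2, CSF3 and CXCL8 being the exceptions.

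**Figure D1:**
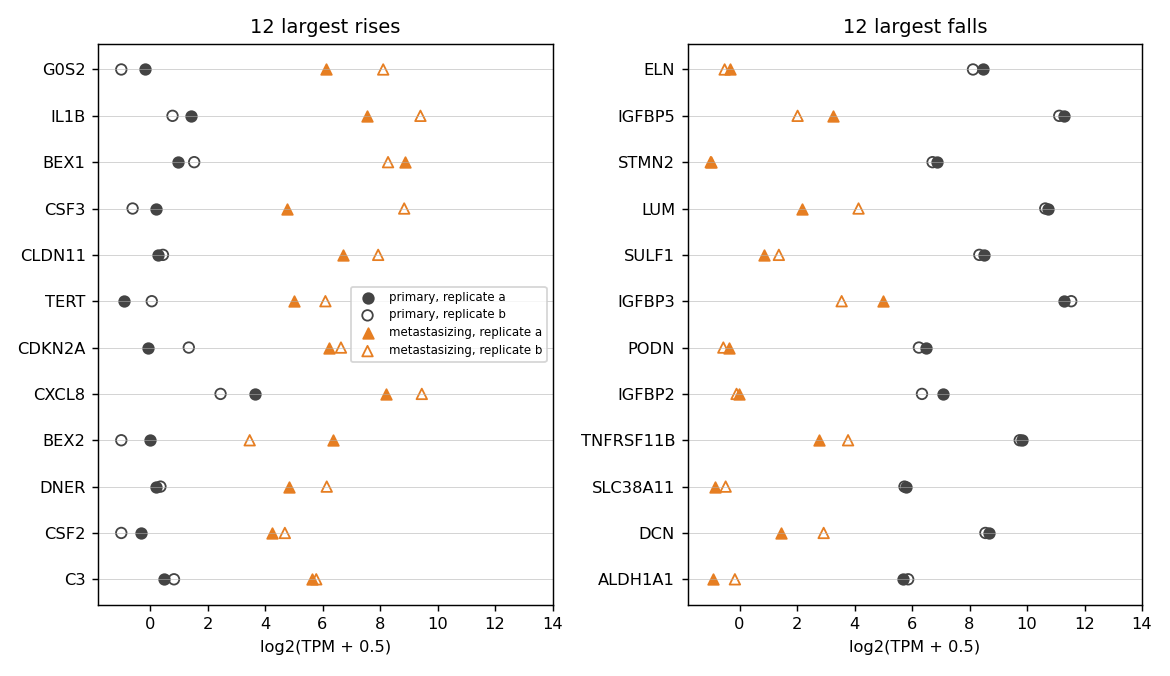
log2(TPM + 0.5) in every library of the comparison for the 12 largest rises (left) and the 12 largest falls (right) among called genes, with primary libraries as circles and metastasizing libraries as triangles, replicate a filled and replicate b open. The 24 genes were chosen with at least 2-fold between the nearest libraries of the groups, so the groups cannot overlap. The metastasizing replicates lie apart by more than the primary ones in CSF3 (26.5 and 458 TPM) and LUM (3.996 and 17.1 TPM).

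Counted in TPM instead of fold change, the largest gains among called genes were in a collagenase and ribosomal proteins, and the largest losses included several matrix proteins. Genes under the 2-fold limit were left out of this ranking. MMP1, interstitial collagenase (GRCh37 chromosome 11 from 102660132 to 102668891), was at 970.3 and 709 TPM in primary and 3467 and 6422 TPM in metastasizing cells (log2 fold change 2.51 ± 0.34, adjusted p = 0.000168) and had the largest gain of all called genes. The next largest gains were ribosomal: RPS23 (2034 and 2272 TPM against 6473 and 4516 TPM), RPS21 (1252 and 869 TPM against 2847 and 5201 TPM), RPL39, RPL10 and RACK1, a scaffold protein of the small subunit. These gains were modest as folds, with log2 fold changes of 1.33 for RPS23, 1.88 for RPS21, 1.10 for RPL39, 1.03 for RPL10 and 1.001 for RACK1. RPL39, RPL10 and RACK1 fell under the 2-fold limit with quantile normalization (0.99, 0.83 and 0.84) and without metastasizing replicate a (0.94, 0.64 and 0.88); without primary replicate a RPL39 and RPL10 stood at 0.997 and 0.96, and without primary replicate b RACK1 stood at 0.93. The largest losses were SPARC, osteonectin, a matrix protein that binds collagen and calcium (3829 and 4362 TPM in primary against 791 and 1483 TPM in metastasizing cells), fibronectin (FN1, 3137 and 3688 TPM against 962 and 427 TPM), IGFBP3, the collagen chain COL1A2 (2749.9 and 3061 TPM against 92.8 and 344 TPM), TIMP3, an inhibitor of metalloproteinases (2828 and 2673 TPM against 389.8 and 144 TPM), and S100A4, a calcium-binding protein (2474 and 2535 TPM against 48.1 and 199 TPM). In each of these the lower primary library was above the higher metastasizing library, as in every gene called lower.

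Collagens fell as a group: 16 of 21 tested chains were lower, none was higher, and the median log2 fold change was -2.24 beside -0.03 for all genes, where 9.08% of all genes were called lower. COL1A2 fell by 4.02, COL5A1 by 3.90 (430.2 and 339 TPM against 16.2 and 39.0 TPM) and the basement membrane chain COL4A1 by 3.87 (339 and 334 TPM against 33.4 and 15.2 TPM) on the log2 scale. COL1A1, the other chain of type I collagen, was at 2949 and 1879 TPM against 107 and 315 TPM, and in both chains metastasizing replicate b was the higher of the pair. With library weights 14 of the 16 calls were kept.

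Of 35 matrix glycoproteins and proteoglycans, 25 fell and 1 rose (median -2.27), and 25 of the 26 calls were kept with library weights. Here too the shares over all genes were 9.08% lower and 6.65% higher. Next to ELN, LUM and DCN, the fibre protein MFAP5 went from 132 and 139 TPM to 0.698 and 3.36 TPM and FBLN5, which helps to assemble elastic fibres, from 235 and 258 TPM to 5.01 and 2.56 TPM, so that several components of the elastic fibre fell together. The exception was FBN2, a fibrillin of developing tissue, which rose from 9.49 and 11.3 TPM to 92.6 and 49.4 TPM (log2 fold change 2.65 ± 0.26, adjusted p = 1.42e-05). The lysyl oxidase LOXL2, which links collagen fibres, fell from 1164 and 936 TPM to 335 and 435 TPM (log2 fold change -1.45 ± 0.16, adjusted p = 3.74e-05).

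Proteases and their inhibitors split. Of 26 tested genes, 12 fell and 4 rose (median -1.09), and 14 of these 16 calls were kept with library weights. By comparison, 9.08% of all genes were called lower and 6.65% higher. MMP2, gelatinase A, fell from 634 and 695 TPM to 32.8 and 42.0 TPM (log2 fold change -4.14 ± 0.14, adjusted p = 1.20e-08) and MMP3, stromelysin, from 215 and 288 TPM to 19.2 and 15.3 TPM (log2 fold change -3.82 ± 0.33, adjusted p = 6.54e-06), while MMP1 rose. The inhibitors TIMP1 (1360.2 and 1127 TPM against 234 and 351 TPM), TIMP2 (788 and 761 TPM against 201 and 244 TPM) and TIMP3 fell, and the scarce TIMP4 rose from 1.15 and 0.929 TPM to 6.14 and 2.89 TPM, a call that was lost without primary replicate b (log2 fold change 1.53 against 1.63). Urokinase (PLAU), which activates plasminogen, was at 89.7 and 68.3 TPM against 153 and 258 TPM (log2 fold change 1.34 ± 0.22, adjusted p = 0.000601), and its change was 0.96 without metastasizing replicate b. MMP1, PLAU and TIMP4 therefore moved against the direction of most of the list, as did cathepsin S (CTSS), a lysosomal protease that rose by 2.77 in the fit over all libraries and was not called with library weights or without any 1 of the 4 libraries (2.57 to 2.96).

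The chemokines and cytokines were the list with the highest median, 2.61 on the log2 scale beside -0.03 for all genes. Of 24 tested genes, 15 rose, 1 fell and 8 did not pass, against 6.65% of all genes called higher, and 13 of the 16 calls were kept with library weights. Members such as CSF2, CSF3, CXCL5 and LIF were under 1 TPM in both primary libraries. They were tested only because metastasizing cells reached 1 TPM, so the filter itself favours rises in this median and count. Besides IL1B, CSF3, CXCL8 and CSF2, IL6, an acute-phase cytokine, rose from 8.38 and 6.42 TPM to 148 and 180.4 TPM (log2 fold change 4.39 ± 0.71, adjusted p = 0.000553), and LIF, a cytokine of the same receptor family, from 0.842 and 0.436 TPM to 75.5 and 9.19 TPM (log2 fold change 4.60 ± 0.68, adjusted p = 0.000286). IL11 rose from 25.4 and 19.6 TPM to 108 and 72.3 TPM (log2 fold change 1.96 ± 0.34, adjusted p = 0.000784) and the neutrophil chemokine CXCL5 from 0.668 and 0.355 TPM to 9.61 and 11.7 TPM (log2 fold change 3.47 ± 0.35, adjusted p = 1.88e-05). CXCL1, a related chemokine, was at 18.6 and 10.8 TPM against 30.6 and 294 TPM and did not pass (adjusted p = 0.0333), although it passed with metastasizing replicate a left out (log2 fold change 4.33). NFKBIA, the feedback inhibitor of NF-kB, rose from 31.1 and 34.6 TPM to 91.4 and 117 TPM (log2 fold change 1.64 ± 0.28, adjusted p = 0.000754). IL6 and CXCL5 were alike in both metastasizing replicates, whereas LIF was higher in replicate a. The member that fell was CXCL12, a chemokine of stromal cells that guides cells bearing CXCR4, from 406 and 325 TPM to 20.5 and 33.1 TPM (log2 fold change -3.78 ± 0.23, adjusted p = 4.41e-07).

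Because AP-1 lies downstream of the MAPK cascade and many cytokine genes are known to be regulated through it, the promoters of 3 risen cytokines that hold its core motif are printed, with that of IL1B, the cytokine with the largest rise, which holds none in this window. The sequences are RefSeq promoters on GRCh38.p14, from 250 bases before to 50 bases after the annotated start of the gene, written in the direction of transcription, and capitals mark TGAGTCA on either strand. The windows are chr4:73740319-73740618 on the plus strand for CXCL8, chr2:112784444-112784743 on the minus strand for IL1A, chr19:55370414-55370713 on the minus strand for IL11 and chr2:112836730-112837029 on the minus strand for IL1B.
CXCL8: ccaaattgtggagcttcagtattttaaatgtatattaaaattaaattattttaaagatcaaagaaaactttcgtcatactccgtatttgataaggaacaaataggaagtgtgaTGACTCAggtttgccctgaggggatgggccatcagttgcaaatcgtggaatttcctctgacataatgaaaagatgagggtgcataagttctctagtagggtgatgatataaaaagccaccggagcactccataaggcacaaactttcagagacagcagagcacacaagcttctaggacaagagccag
IL1A: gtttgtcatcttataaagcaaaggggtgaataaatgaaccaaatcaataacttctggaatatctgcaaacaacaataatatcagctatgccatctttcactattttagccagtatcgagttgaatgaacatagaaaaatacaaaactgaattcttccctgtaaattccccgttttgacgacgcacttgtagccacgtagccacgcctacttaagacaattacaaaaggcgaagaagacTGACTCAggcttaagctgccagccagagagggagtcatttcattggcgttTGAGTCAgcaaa
IL11: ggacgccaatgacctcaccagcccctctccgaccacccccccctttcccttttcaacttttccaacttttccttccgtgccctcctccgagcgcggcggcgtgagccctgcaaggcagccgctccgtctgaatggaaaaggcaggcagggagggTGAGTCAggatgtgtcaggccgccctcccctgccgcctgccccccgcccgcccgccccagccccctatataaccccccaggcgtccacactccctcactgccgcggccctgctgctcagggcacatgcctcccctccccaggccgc
IL1B: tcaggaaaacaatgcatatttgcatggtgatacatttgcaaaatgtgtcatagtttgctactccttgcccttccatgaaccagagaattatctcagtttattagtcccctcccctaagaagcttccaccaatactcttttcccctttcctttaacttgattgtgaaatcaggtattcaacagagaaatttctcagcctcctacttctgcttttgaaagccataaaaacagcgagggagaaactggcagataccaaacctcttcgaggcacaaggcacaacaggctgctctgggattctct

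Counted from the start site as 0, the motif began at position -137 in CXCL8, at -12 and 38 in IL1A and at -96 in IL11. IL1A stood at 0.343 and 0.173 TPM in primary and 2.76 and 6.67 TPM in metastasizing cells (log2 fold change 2.68 ± 0.58, adjusted p = 0.00344), a call not kept with library weights, without either primary replicate (2.85 and 2.52) or without metastasizing replicate b (2.11). Of the 12397 tested genes 10055 had a promoter sequence, and 2.91% of these held TGAGTCA on either strand. The share was 4 of 20 among the chemokines and cytokines, 3.18% (20 of 628) among all genes called higher and 4.56% (40 of 877) among all genes called lower. The presence of the motif was thus not more frequent in the genes called higher as a whole than in those called lower. A match in the letters is a description of the sequence and not a bound site.

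Other motifs were counted in the same windows, on both strands, and no motif contains another. An E2F motif (TTTCCCGC, TTTCGCGC, TTTGGCGC or TTTGCCGC) was present in 5.42% of the promoters of tested genes, in 2.87% (18 of 628) of those called higher and in 3.76% (33 of 877) of those called lower. The CHR motif TTTGAA, an element of cell cycle genes, was present in 9.74% of all, 8.28% of the higher and 12.1% of the lower set, CCAAT in 36.6%, 36.9% and 30.8%, and the hypoxia response core ACGTG in 27.0%, 22.9% and 21.4%. Within lists, E2F motifs were present in 16 of 27 promoters of DNA replication genes and CHR in 18 of 24 promoters of mitosis genes, lists of which few members were called.

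Genes of DNA replication and nucleotide supply differed little between the ends of the model at 3% oxygen. Of 33 tested genes 1 rose and none fell (median 0.24). MCM2, a subunit of the replicative helicase, was at 62.4 and 50.5 TPM against 84.4 and 112 TPM, a change that stayed under 2-fold (log2 fold change 0.78 ± 0.18, adjusted p = 0.00468), and PCNA, the sliding clamp, was at 388 and 356 TPM against 433 and 446 TPM. Of 30 mitosis genes, 3 fell and none rose (median -0.44), a share near the 9.08% of all genes called lower. These were the kinetochore proteins CENPE (44.9 and 45.5 TPM against 11.041 and 26.1 TPM) and CENPF, and the proliferation marker MKI67 (121 and 152 TPM against 41.8 and 65.7 TPM). With library weights CENPE alone was called. Without metastasizing replicate a CENPE stood at a log2 fold change of -0.78 against -1.38 and CENPF at -0.89, and without primary replicate b MKI67 stood at -1.20 and CENPF at -1.10, neither being called. The call of CENPE was also lost without either primary replicate (-1.39 and -1.37). CCNB1, the mitotic cyclin, was at 224 and 274 TPM against 345 and 492 TPM. Of the genes with values here, MKI67 and CENPE were on the lower and MCM2, PCNA and CCNB1 on the higher side in metastasizing cells, without overlap. Over the lists, the groups did not overlap in 15 of 30 mitosis and 27 of 33 replication genes, against 65.6% of all tested genes.

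The regulators of the G1 phase and of p53 changed more. Of 14 CDK inhibitors, D cyclins and retinoblastoma proteins, 3 rose and 6 fell, all 9 also with library weights. Over all genes the shares were 6.65% higher and 9.08% lower. CCND1, cyclin D1, fell from 702 and 605 TPM to 147 and 107 TPM (log2 fold change -2.37 ± 0.15, adjusted p = 5.48e-07), CDK6 from 36.6 and 39.0 TPM to 16.9 and 9.89 TPM and RB1 from 88.4 and 85.7 TPM to 36.4 and 43.6 TPM (log2 fold change -1.12 ± 0.11, adjusted p = 1.59e-05), which was -0.99 without metastasizing replicate a. CDKN2A and CDK4, which p16 inhibits (225 and 223 TPM against 558 and 437 TPM, log2 fold change 1.14 ± 0.11, adjusted p = 1.45e-05), rose, and CDK4 was at 0.96 without metastasizing replicate a. Thus the inhibitor gene CDKN2A and the kinase gene CDK4 were higher while the cyclin gene CCND1 was lower.

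Of 26 p53 pathway genes, 9 fell and 2 rose (median -0.58), and 9 of the 11 calls were kept with library weights. Among all genes 9.08% were called lower and 6.65% higher. The p53 target FAS, a death receptor, fell from 59.5 and 75.6 TPM to 4.58 and 3.15 TPM (log2 fold change -3.97 ± 0.25, adjusted p = 6.70e-07), SPATA18, a mitochondrial quality control protein, from 7.51 and 7.26 TPM to 0.290 and 0.219 TPM (log2 fold change -3.39 ± 0.20, adjusted p = 3.36e-07) and ZMAT3, an RNA-binding p53 target, from 22.4 and 22.9 TPM to 4.71 and 4.31 TPM (log2 fold change -2.21 ± 0.16, adjusted p = 1.44e-06). CDKN1A, p21, was at 253 and 249 TPM against 131 and 50.8 TPM and was called in the fit over all libraries (log2 fold change -1.62 ± 0.34, adjusted p = 0.00274), and the call was lost without primary replicate a (-1.61), primary replicate b (-1.63) or metastasizing replicate b (-0.94). The target PLK2, a polo-like kinase, rose from 33.9 and 38.1 TPM to 227 and 99.0 TPM (log2 fold change 2.05 ± 0.34, adjusted p = 0.000594), MDM2, which degrades p53, was at 37.7 and 27.8 TPM against 80.2 and 16.1 TPM with overlapping groups, and BAX, an effector of apoptosis, at 243 and 241 TPM against 194 and 232 TPM. The targets of the list therefore did not all follow 1 direction.

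Genes that report RAS and MAPK output were divided as well. Of 29 tested, 5 rose and 6 fell (median 0.18), and 9 of the 11 calls were kept with library weights. The shares of all genes called were 6.65% higher and 9.08% lower. ETV4, an ETS factor, rose from 11.9 and 10.4 TPM to 43.97 and 34.3 TPM (log2 fold change 1.76 ± 0.16, adjusted p = 9.01e-06) and HBEGF, an EGF receptor ligand, from 19.5 and 18.7 TPM to 62.5 and 39.0 TPM (log2 fold change 1.35 ± 0.17, adjusted p = 0.000114). The phosphatase gene DUSP4 was at 7.61 and 6.48 TPM against 12.003 and 36.5 TPM, and its call was lost without metastasizing replicate b (0.73 against 1.52) or either primary replicate (1.41 and 1.62). SPRY4, a feedback inhibitor of the cascade, fell from 51.8 and 42.5 TPM to 17.7 and 14.9 TPM (log2 fold change -1.501 ± 0.14, adjusted p = 1.00e-05), and the EGF receptor ligands TGFA (5.49 and 5.07 TPM against 0.323 and 0.0344 TPM) and EREG (38.5 and 36.1 TPM against 2.32 and 10.1 TPM) fell too. DUSP6, a phosphatase of ERK, was at 27.7 and 22.6 TPM against 12.5 and 43.7 TPM, with overlapping groups.

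Growth factors, their receptors and BMP feedback had more members lower than higher, where 9.08% of all genes were called lower and 6.65% higher. Of 36 secreted growth factors and binding proteins, 16 fell, 3 rose and 17 did not pass (median -1.04), and 18 of the 19 calls were kept with library weights. Next to the IGFBP genes, IGF2, a fetal growth factor, fell from 37.2 and 39.8 TPM to 2.09 and 2.39 TPM (log2 fold change -3.83 ± 0.22, adjusted p = 3.31e-07). The genes that rose were FST, follistatin, which binds activins (12.001 and 9.99 TPM against 72.5 and 141 TPM, log2 fold change 3.15 ± 0.26, adjusted p = 5.09e-06), MDK, midkine, a heparin-binding growth factor (12.2 and 5.73 TPM against 30.2 and 54.4 TPM, log2 fold change 2.21 ± 0.33, adjusted p = 0.000293), and SFRP1, a secreted antagonist of Wnt (77.0 and 56.6 TPM against 159.9 and 892 TPM), whose call was lost without either primary replicate (2.29 and 2.73 against 2.51). Of 22 growth factor receptors 4 fell, all 4 also with library weights, none rose and 18 did not pass (median -0.75). PDGFRA, a receptor of platelet-derived growth factor, fell from 41.7 and 26.8 TPM to 1.21 and 1.19 TPM (log2 fold change -4.32 ± 0.22, adjusted p = 1.31e-07) and MET, the receptor of hepatocyte growth factor, from 137 and 138 TPM to 35.0 and 30.1 TPM (log2 fold change -2.07 ± 0.14, adjusted p = 8.78e-07). Of 8 ID and BMP feedback genes 7 fell (median -2.28), all 7 also with library weights, among them ID1 (210.0 and 111 TPM against 21.1 and 13.523 TPM, log2 fold change -3.14 ± 0.41, adjusted p = 0.000111) and ID3 (347 and 259 TPM against 90.0 and 33.8 TPM, log2 fold change -2.43 ± 0.38, adjusted p = 0.000408), inhibitors of basic helix-loop-helix factors.

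Adhesion, contractile and positional genes also moved, beside 9.08% of all genes called lower and 6.65% called higher. Of 19 integrins and cadherins 8 fell and 1 rose (median -0.87, 6 of the 9 calls kept with library weights), with the collagen receptor ITGA11 at 41.7 and 43.5 TPM against 2.28 and 0.927 TPM (log2 fold change -4.43 ± 0.32, adjusted p = 1.73e-06). Of 20 contractile genes 7 fell and 1 rose (median -0.90, 7 of the 8 calls kept). In this list the median difference between the metastasizing replicates (b minus a) was -0.69. The smooth muscle actin ACTA2 was at 61.2 and 99.3 TPM against 32.8 and 12.2 TPM, a call lost with library weights and, at a log2 fold change of -1.58, without primary replicate b, whereas the related ACTG2 rose from 4.14 and 3.43 TPM to 106 and 65.3 TPM (log2 fold change 4.29 ± 0.18, adjusted p = 4.58e-08). Actin genes share much of their sequence, so the division of reads between them is uncertain. Of 23 HOX genes 8 fell and 6 rose (12 of the 14 calls kept): HOXA13, a marker of distal limb position, fell from 16.6 and 14.7 TPM to 0.695 and 0.832 TPM (log2 fold change -3.68 ± 0.29, adjusted p = 2.80e-06) and HOXA9 from 38.3 and 34.2 TPM to 6.36 and 6.09 TPM (log2 fold change -2.45 ± 0.16, adjusted p = 9.39e-07), while HOXB7 was listed at 0 in both primary libraries and stood at 1.4962 and 3.14 TPM in metastasizing cells.

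Of 30 hypoxia markers, both ends of which were grown at 3% oxygen, 6 rose and 2 fell (median 0.14), and 4 of the 8 calls were kept with library weights. For all genes these shares were 6.65% and 9.08%. NDRG1, a stress-induced protein of low oxygen, rose from 61.8 and 42.2 TPM to 232 and 490.0 TPM (log2 fold change 2.71 ± 0.30, adjusted p = 3.34e-05), DDIT4, an inhibitor of mTORC1, from 6.06 and 4.95 TPM to 17.2 and 71.3 TPM (log2 fold change 2.58 ± 0.46, adjusted p = 0.00105), and VEGFA, the angiogenic growth factor, from 46.5 and 36.3 TPM to 155 and 87.6 TPM (log2 fold change 1.49 ± 0.23, adjusted p = 0.00037). The call of DDIT4 was lost without primary replicate b (log2 fold change 2.44). CA9, carbonic anhydrase IX, was at 3.40 and 1.29 TPM against 7.13 and 17.8 TPM and was not called with library weights, without primary replicate b (1.60) or without metastasizing replicate b (1.53). ANGPTL4, a lipase inhibitor, went the other way, with 34.9 and 13.3 TPM against 1.84 and 0.842 TPM, and was not called with library weights either. SLC2A1, the glucose transporter, was at 194 and 179 TPM against 101 and 147 TPM. Its groups did not overlap, but its change stayed under 2-fold and did not pass the p threshold either (adjusted p = 0.0115).

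The promoters of CA9 and DDIT4, whose levels differed between the ends of the model, each hold 1 hypoxia response core, ACGTG on either strand (capitals), within the window. They lie at chr9:35673678-35673977 and chr10:72273674-72273973, both on the plus strand, and the core begins at position -18 in CA9 and at -125 in DDIT4.
CA9: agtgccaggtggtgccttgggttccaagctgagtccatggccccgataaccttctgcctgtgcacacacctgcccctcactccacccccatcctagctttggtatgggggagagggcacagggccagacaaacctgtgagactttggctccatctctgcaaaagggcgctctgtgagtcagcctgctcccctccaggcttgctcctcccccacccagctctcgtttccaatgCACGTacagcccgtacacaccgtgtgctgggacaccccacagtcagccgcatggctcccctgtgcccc
DDIT4: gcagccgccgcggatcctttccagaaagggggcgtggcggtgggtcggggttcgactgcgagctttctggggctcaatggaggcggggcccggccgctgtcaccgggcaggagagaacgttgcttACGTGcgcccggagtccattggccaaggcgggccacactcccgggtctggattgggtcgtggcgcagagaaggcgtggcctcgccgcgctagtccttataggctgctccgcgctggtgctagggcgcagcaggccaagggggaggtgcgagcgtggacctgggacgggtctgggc

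Of the hypoxia markers with a promoter sequence, 10 of 23 held the core, against 27.0% of tested genes, and windows of this length leave out distant elements.

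Few genes of central metabolism were called, where 15.7% of all genes were. Of 22 glycolysis genes 1 was called: LDHB, a subunit of lactate dehydrogenase, at 624 and 657 TPM against 1289.5 and 2091 TPM (log2 fold change 1.36 ± 0.35, adjusted p = 0.00941). Its call was lost with library weights, without either primary replicate (1.40 and 1.32) and without metastasizing replicate b (1.01). LDHA, the other subunit, was at 4092 and 4100.1 TPM against 2397 and 3514 TPM. It was lower in both metastasizing libraries, but the change stayed under 2-fold and did not pass the p threshold either (adjusted p = 0.0185). Of 39 respiratory chain genes 1 fell: COX7A1, the form of a cytochrome c oxidase subunit found in heart and muscle, from 63.3 and 51.3 TPM to 0.351 and 1.41 TPM (log2 fold change -5.50 ± 0.40, adjusted p = 1.82e-06). Of 28 cholesterol genes INSIG1, a sensor that retains SREBP in the endoplasmic reticulum, rose from 21.3 and 21.9 TPM to 67.3 and 109 TPM (log2 fold change 1.96 ± 0.17, adjusted p = 6.28e-06) and TM7SF2, a sterol reductase, fell in the fit over all libraries but not with library weights, without either primary replicate (-1.60 and -1.38) or without metastasizing replicate a (-0.87). Of 34 ribosomal protein genes 6 rose and 1 fell (median 0.77), so that most of the list was higher by less than 2-fold, and with quantile normalization 3 rose and 1 fell (median 0.64). Apart from TERT, no other gene of 12 in the telomerase and shelterin list was called. Of 21 homologous recombination and Fanconi anaemia genes 1 rose, XRCC3 (26.8 and 25.7 TPM against 61.8 and 54.3 TPM, log2 fold change 1.13 ± 0.14, adjusted p = 9.03e-05), and 1 fell, BRCA2, which was at the 2-fold limit and was not called with library weights, nor without either primary replicate (-1.22 and -0.78) or metastasizing replicate a (-0.57).

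Interferon-stimulated genes had a raised median (0.95) but few calls at 3% oxygen: of 35 tested, 4 rose and 1 fell, and 2 of these calls were kept with library weights. All tested genes had 6.65% called higher and 9.08% called lower. BST2, tetherin, which holds budding viruses on the cell, was at 0.209 and 0.212 TPM in primary and 6.13 and 4.63 TPM in metastasizing cells (log2 fold change 3.04 ± 0.50, adjusted p = 0.000604). IFITM2, which blocks viral entry and has close copies in the genome, fell from 114 and 118 TPM to 22.8 and 26.0 TPM (log2 fold change -2.23 ± 0.13, adjusted p = 3.39e-07). IFIT1, which binds viral RNA, was at 6.85 and 8.51 TPM against 5.72 and 23.3 TPM, with overlapping groups. Of 11 genes of antigen presentation by MHC class I, 2 rose, PSMB9, an inducible subunit of the proteasome, and ERAP1, which trims peptides (16.0 and 17.5 TPM against 53.1 and 34.3 TPM, log2 fold change 1.33 ± 0.17, adjusted p = 8.75e-05).

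**Figure D2:**
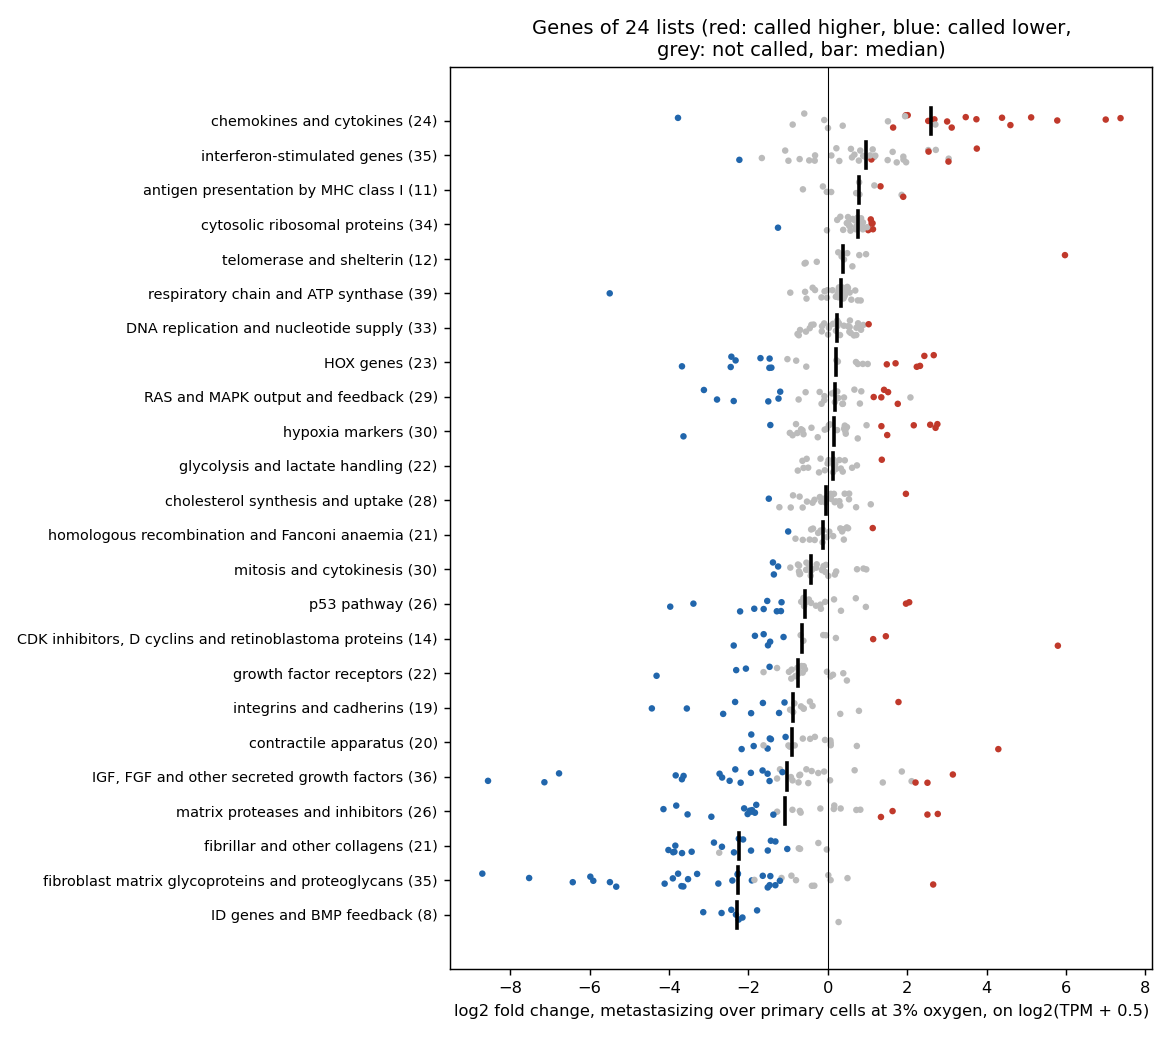
Log2 fold change from primary to metastasizing cells at 3% oxygen (x axis, on log2(TPM + 0.5)) of every tested gene of 24 lists, with the number of tested genes in brackets and black bars at the list medians. Chemokines and cytokines have the highest median (2.61) and ID genes and BMP feedback, matrix glycoproteins and collagens the lowest (-2.28, -2.27 and -2.24).

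The net change was then set out over the 3 steps of the model at 3% oxygen, which share libraries with the end-to-end comparison and add up to it, so that the steps are given as values with no test. Of the 825 genes called higher, the largest step in that direction was from immortalized to transformed cells in 433 (52.5%), from primary to immortalized cells in 246 and from transformed to metastasizing cells in 146. Of the 1126 called lower, these numbers were 536 (47.6%), 369 and 221. The SV40 step was therefore the most frequent largest step in both directions. ELN had nearly all of its change at the first step (log2 changes of -8.73, 0.01 and 0.02 over the hTERT, SV40 and RAS steps), and so had TERT (7.50, -0.82 and -0.71). BEX1 and CDKN2A had theirs at the SV40 step (9.60 and 7.52), after opposite values at the first step (-2.11 and -1.65).

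The change of some secreted proteins was spread over the last 2 steps. IGFBP5 changed by 0.36, -5.01 and -3.91, and LUM by 0.11, -4.86 and -2.78, over the 3 steps. G0S2 was spread likewise, with 0.61, 2.79 and 4.30. In some genes the end-to-end value hides opposed steps: MMP1 changed by -1.78, 1.19 and 3.10, SLC38A11 by 2.51, -8.98 and 0.03, ID1 by -1.45, -4.14 and 2.45, FBN2 by -4.42, 7.91 and -0.84 and CA9 by 4.92, -0.82 and -1.94. The interferon-stimulated genes had list medians of 1.56, 0.73 and -1.75 over the 3 steps, so that positive values at the first steps and a negative one at the last lay behind their small net change.

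**Figure D3:**
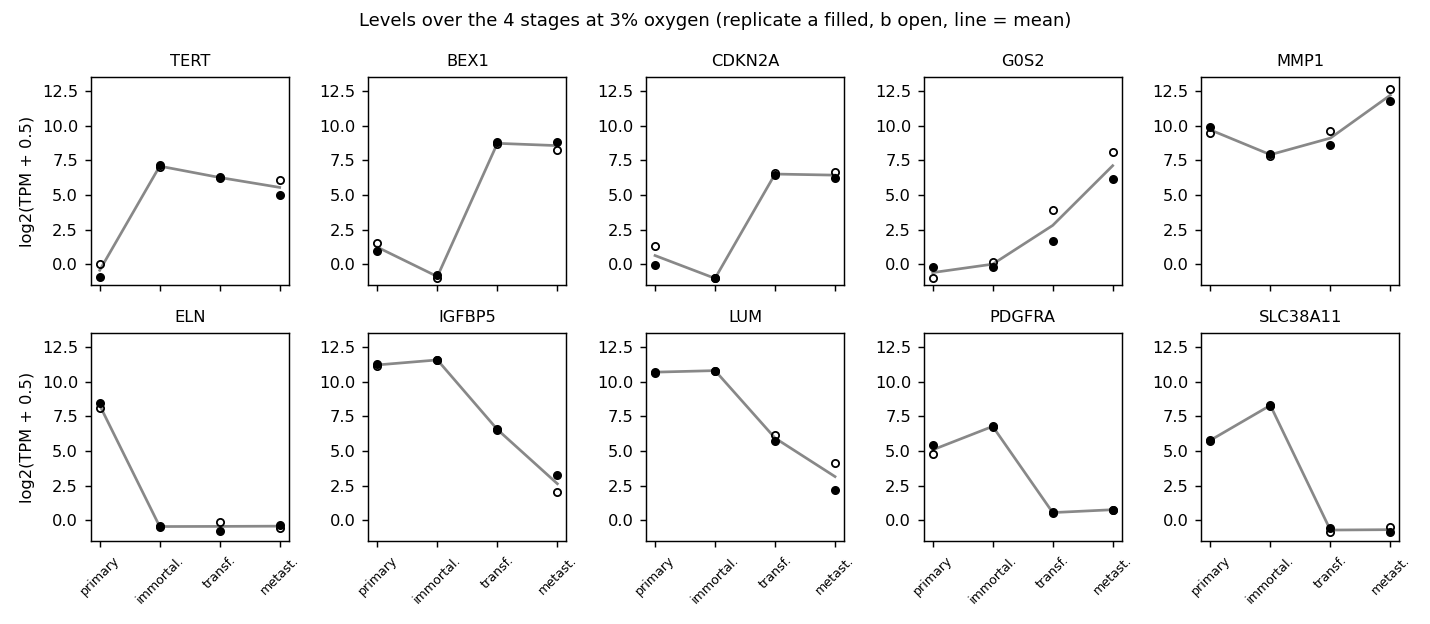
log2(TPM + 0.5) in both libraries of each stage at 3% oxygen for 10 genes named in the text (replicate a filled, replicate b open, grey line through the means). The levels of TERT and ELN differ most between the first stages, those of BEX1, CDKN2A, PDGFRA and SLC38A11 between immortalized and transformed cells, and those of G0S2, MMP1, IGFBP5 and LUM also between the last stages.

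The SV40 step at 3% oxygen shares no library with the end-to-end comparison, so its calls could be set beside it. Both come from the fit over all 16 libraries with a common estimate of the spread of each gene. The calls are therefore not independent. From immortalized to transformed cells, 2026 of 12396 genes were called (16.3%, or 2146 with library weights), 1111 higher (8.96%) and 915 lower (7.38%). Of the 1951 end-to-end calls, 863 were also called there, which is 44.2% of the end-to-end calls and 42.6% of the calls of the step. In 788 of the 863 the direction was the same and in 75 it was opposite, as for ACTG2, whose log2 change at the SV40 step was -2.77 against 4.29 end to end.

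The same end-to-end comparison at atmospheric oxygen uses 4 other libraries, in the same fit with the common spread. There, 2331 of 12500 genes were called (18.6%, or 2455 with library weights), 1257 higher (10.1%) and 1074 lower (8.59%), and the median over all genes was 0.19 on the log2 scale. With median-ratio rescaling, which brings that median to 0.00, 882 were higher and 1353 lower. Of the 1951 genes called at 3% oxygen, 1042 were also called at atmospheric oxygen (53.4% of the former and 44.7% of the latter), 1028 of them in the same direction. Among them ELN stood at a log2 fold change of -8.71 at atmospheric and -8.70 at 3% oxygen, IGFBP2 at -7.22 and -6.77, SULF1 at -7.30 and -7.31, and CXCL8 at 5.60 and 5.78. Of 35 matrix glycoproteins 24 fell at atmospheric and 25 at 3% oxygen, and of 21 collagens 13 and 16 fell.

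The difference between the oxygen levels was tested as an interaction (the change at 3% minus the change at atmospheric oxygen). Of 12828 genes, 844 differed (6.58%), 290 with a higher value at 3% oxygen (2.26%) and 554 with a lower one (4.32%), around a median difference of -0.20 over all genes. With median-ratio rescaling, which moves that median to 0.02, 743 differed and the balance turned to 452 higher and 291 lower, so the split of directions depends on the scaling. With library weights 466 genes were called (3.63%), and from the 8 libraries compared 129. The count also rested on single libraries: it was 478 or 407 without primary replicate a or b at 3% oxygen, 408 or 527 without primary replicate a or b at atmospheric oxygen, 503 or 380 without metastasizing replicate a or b at atmospheric oxygen, and 1024 or 1514 without metastasizing replicate a or b at 3% oxygen.

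Among the largest differences, G0S2 was near the floor in primary cells at either oxygen level, with 2.40 and 1.07 TPM in metastasizing cells at atmospheric and 69.6 and 276 TPM at 3% oxygen (difference 6.41 ± 1.03, adjusted p = 0.00205). IL1B showed the same order, with 5.76 and 6.0025 TPM against 186 and 677 TPM in metastasizing cells (difference 6.10 ± 1.05, adjusted p = 0.00298). MMP1 fell from 463 and 369.6 TPM to 107 and 112 TPM at atmospheric oxygen (-1.91, adjusted p = 0.000862) and rose at 3% oxygen (2.51, adjusted p = 0.000168), so its net change over the model had opposite directions. CXCL12 stood at 226 and 258 TPM in primary and 403 and 415 TPM in metastasizing cells at atmospheric oxygen, while it fell at 3% oxygen (difference -4.54 ± 0.32, adjusted p = 5.76e-05). BST2 reached 605 and 524 TPM in metastasizing cells at atmospheric oxygen against 6.13 and 4.63 TPM at 3% oxygen (difference -6.42 ± 0.71, adjusted p = 0.000327).

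By the difference of list medians, interferon-stimulated genes stood first, although larger shares of the cholesterol and homologous recombination lists were called. Over all genes, 10.1% were called higher at atmospheric oxygen and 6.65% at 3% oxygen. Of 38 interferon-stimulated genes 37 rose at atmospheric oxygen (median 4.22) against 4 of 35 at 3% oxygen (median 0.95), and 14 had a lower value at 3% oxygen by the interaction, 7 with library weights and 8 with median-ratio rescaling. Of 28 cholesterol genes 18 rose at atmospheric oxygen and 15 differed, 16 with library weights and 12 with median-ratio rescaling. Of 33 replication genes 21 rose and 9 differed (6 under either alternative), and of 21 homologous recombination genes 12 rose and 11 differed (7 and 5). Of 30 hypoxia markers 12 rose and 11 differed (8 and 7), and of 22 glycolysis genes 9 rose and 8 differed (7 and 4). All of these differences were towards a lower value at 3% oxygen, the direction in which 4.32% of all genes were called in the main fit. Of all 12828 genes, 295 were called in that direction with library weights and 291 with median-ratio rescaling. Ribosomal protein genes went the other way, with 6 of 34 higher by the interaction (6 with library weights and 13 with median-ratio rescaling). So did contractile genes, with 5 of 20 higher (3 and 5). Of all genes, 2.26% were called higher in the main fit. Of all 12828 genes, 171 were called higher with library weights and 452 with median-ratio rescaling. Collagens were called in both directions, 3 of 21 higher and 5 lower (1 and 5 with library weights, 3 and 3 with median-ratio rescaling), with a median difference of -1.21.

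**Figure D4:**
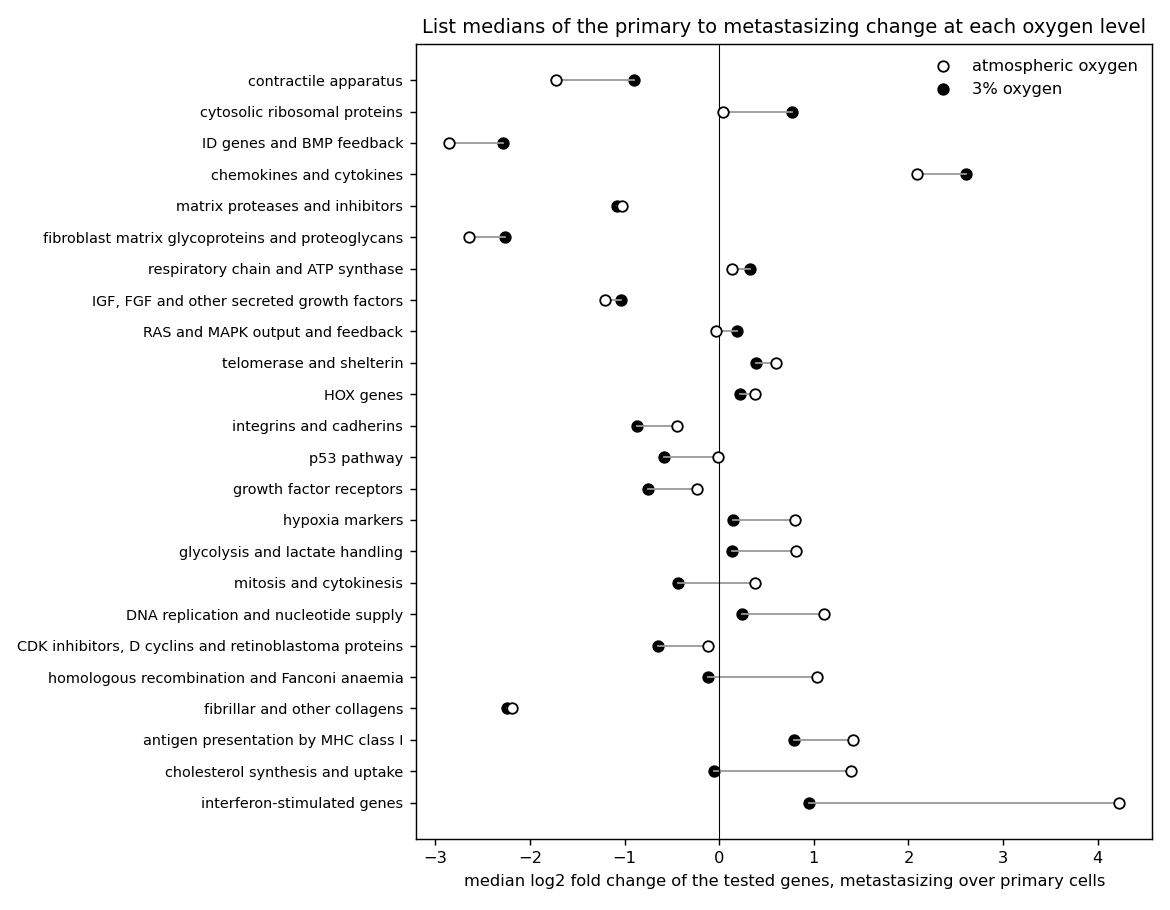
Median log2 fold change of the tested genes of each list (x axis) from primary to metastasizing cells at atmospheric oxygen (open) and at 3% oxygen (filled), ordered by the median of the interaction. The distance is widest for interferon-stimulated genes (4.22 against 0.95) and cholesterol synthesis (1.39 against -0.06), while the list medians of collagens (-2.19 against -2.24) lie close together although single collagens differ between the oxygen levels in both directions (3 higher and 5 lower at 3% oxygen).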

How the data were processed

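RNA of 4 stages of the BJ model at atmospheric and 3% oxygen was sequenced by the authors from stranded poly-A libraries on an Illumina HiSeq2500, and kallisto 0.42.1 was run on GRCh37 transcripts. What they deposited is 1 TPM value per transcript and library. The authors tested estimated counts with edgeR, which TPM do not allow, and library depth is unknown here. Of 180253 transcripts, 151453 were matched to GENCODE 44 lifted to GRCh37 (88.2% to 90.1% of the TPM of a library), summed over 34451 genes, of which 19356 are protein-coding. Reads of near-identical genes were divided by the quantification, so close paralogs are uncertain. TPM are relative within a library.

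Values were analysed as log2(TPM + 0.5) with limma 3.58.1 in R 4.3.3, with 1 model of 8 group coefficients over 16 libraries, moderated tests with a trend, an adjusted p under 0.01 (Benjamini-Hochberg) and more than 2-fold change, among protein-coding genes whose mean reached 1 TPM in a group compared. This model assumes the same spread in every group, which is why library weights and the 4 libraries alone are given beside it. With 2 libraries in each group the smallest two-sided p of an exact permutation test is 0.333, so none was run. On simulated data for this comparison 185 of 200 changed genes and 2 of 12193 unchanged genes were called. The simulated spread was the same in every group, and all planted changes were beyond the 2-fold limit. These counts therefore do not cover the wider spread of the metastasizing pair in the data. The members and gene lists were chosen with earlier results of these data known.

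Genes named are TERT and HRAS, the 12 largest rises and 12 largest falls among genes also called with library weights, with at least 10 TPM in the higher group and at least 2-fold between the nearest libraries, the 6 largest gains and losses in TPM, up to 3 list members with the largest called change in each direction and the highest, and the 5 largest differences between oxygen levels in each direction. Other members of the lists named in the text were chosen after their values were seen. Some genes that the rule names are not reported here. Alternatives were a pseudocount of 1 or 0.1, no filter or a filter of 5 TPM, median-ratio rescaling, quantile normalization, the compared libraries alone, a replicate block, library weights, no trend, an adjusted p under 0.05, all genes, and leaving out each library. A crossed replicate block was added after the data were seen. Figures were drawn with Python 3.11.15 and matplotlib 3.10.9.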

Additional observations from a re-analysis of the deposited data

Results flagged for a closer look

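The change from primary to metastasizing cells differed between 3% and atmospheric oxygen by an interaction test in the following genes, and these are the 5 largest differences in each direction among genes that reach 10 TPM. Higher at 3% oxygen were G0S2 (6.41 on the log2 scale), IL1B (6.10), CEMIP, a hyaluronan-binding protein (4.62), ARHGDIB (4.62), and MMP1 (4.42). ARHGDIB went from 18.6 and 19.2 TPM to 49.9 and 51.5 TPM at 3% oxygen and from 20.6 and 18.0 TPM to 2.60 and 0.952 TPM at atmospheric oxygen. CEMIP stood at 74.2 and 43.1 TPM in primary and 9.28 and 71.8 TPM in metastasizing cells at 3% oxygen, where the groups overlapped, and at 349.7 and 336 TPM and 6.16 and 5.85 TPM at atmospheric oxygen.

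Lower at 3% oxygen were the interferon-stimulated genes RSAD2 (-6.62), BST2 (-6.42), USP18 (-6.30) and MX1 (-5.45), and LGALS9, a galectin (-5.33). In metastasizing cells RSAD2 stood at 1.10 and 0.512 TPM at 3% and 117 and 125 TPM at atmospheric oxygen, USP18 at 3.79 and 3.12 TPM and 157 and 153 TPM, MX1 at 20.5 and 11.2 TPM and 742 and 746 TPM, and LGALS9 at 0.598 and 0.166 TPM and 68.3 and 54.6 TPM. RSAD2, MX1 and LGALS9 were not called with library weights, and MX1 was not called with median-ratio rescaling.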

How the results depend on the processing

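Over the alternatives with all 16 libraries, the end-to-end calls at 3% oxygen ranged from 1277 with library weights to 2269 at an adjusted p under 0.05, and 220 were called from the 4 libraries alone. With 1 library left out at a time, the lone library then being assumed to vary like the other groups, they ranged from 1564 to 2383, those at atmospheric oxygen from 1831 to 2079 and those of the SV40 step from 1497 to 1891. The difference between oxygen levels was called in 844 genes, in 129 from the 8 libraries compared, in 466 with library weights, in 1556 at an adjusted p under 0.05, and in 380 to 1514 with 1 library left out. Of 235 genes followed (the called list members and the genes the text names), 156 lost their call from the 4 libraries alone and 33 with library weights, and no called gene changed direction. Of genes that were not called, DUSP6 stood at 0.0109 with quantile normalization and from -0.97 to 0.79 with 1 library left out, IFIT1 from -0.39 to 1.55 and MDM2 from -0.99 to 1.30. HRAS was called with median-ratio rescaling, quantile normalization, an adjusted p under 0.05 and the crossed block.

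The labels do not say that the letters a and b tie plates of different stages. For primary and metastasizing cells at 3% oxygen, the groups checked, the deviations of same-letter libraries from their group means correlated at -0.16 across 12397 genes. With the letter as a replicate block, 1928 genes were called end to end at 3% oxygen and 750 for the difference between oxygen levels, with 2299 at atmospheric oxygen and 2000 at the SV40 step. A crossed replicate block, chosen after seeing the data, gave 1912. TPM without counts set no limit of detection, and 2 libraries a group, of which 1 pair was loose, limit the precision of every value.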
